A study of Mus musculus with 7 samples.

Results

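The genes described here are 29 mouse genes of cholesterol synthesis and of its control. They come from a list of gene names that holds no threshold on measured values, drawn up with earlier results of these data known, and all 29 were found among the 17422 genes of the expression tables. The list holds 8 enzymes of the mevalonate steps, 12 enzymes of the squalene and sterol steps, 6 genes of the SREBP control system and sterol transfer, and 3 genes of cholesterol export and receptor decay (Abca1, Abcg1 and Mylip).

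Cells build cholesterol from acetyl-CoA: the mevalonate steps make farnesyl pyrophosphate, squalene synthase joins farnesyl units into squalene, and the sterol steps close the rings and trim lanosterol to cholesterol. SREBP transcription factors switch these enzymes on when sterols in the endoplasmic reticulum are low. Scap escorts them to the Golgi for cleavage, and the Insig proteins hold them back when sterols are plentiful. When oxysterols build up, the liver X receptors (LXR) switch on the opposite arm, which exports cholesterol through the transporters Abca1 and Abcg1 and, through the ubiquitin ligase Mylip, lowers its uptake. In brain, most cholesterol is made locally and moves between glia and neurons on lipoprotein particles.

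The series profiled mouse high-grade gliomas grown from grafted neural precursors, all of the Balb/c strain. The PDGF-B-labelled gliomas (3 libraries) are described as wild-type precursors given retroviruses for PDGF-B, the platelet-derived growth factor B chain, and for DsRed, a red fluorescent protein. Those labelled EGFRvIII (3 libraries) are described as Ink/Arf -/- precursors given EGFRvIII, a shortened and constantly active epidermal growth factor receptor, and DsRed. The precursors came from embryos at day 14, grew in medium with B27, bFGF and EGF (10 ng/ml), and were inoculated into the brains of adult mice, 20000 cells each, after 10 days. The tumours were collected at the first neurological symptoms, and cells carrying DsRed were sorted from them. Labels name neither the promoter that drives each transgene nor the age of the hosts. The seventh library is a culture of wild-type precursors transduced with PDGF-B and sorted for DsRed, never grafted. It has no replicate. The driver and the Ink/Arf genotype change together from one glioma group to the other and cannot be told apart. The 3 gliomas of each model are described as independent tumours.

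In all 6 gliomas the driver genes stood opposite to the labels. Egfr stood at 4952, 5109 and 3594 CPM in the PDGF-B-labelled gliomas (replicates 1 to 3) and at 41.2, 26.9 and 25.6 CPM in the EGFRvIII-labelled ones, and Pdgfb at 1.95, 2.97 and 4.88 CPM and 386, 284 and 277 CPM. Cdkn2a, the gene of the Ink/Arf locus, stood at 3.52, 2.94 and 4.99 CPM in the PDGF-B-labelled gliomas, whose label is wild type, and at 22.7, 26.1 and 11.1 CPM in the ones labelled Ink/Arf -/-. In the culture, Pdgfb stood at 245 CPM and Egfr at 282 CPM. No library was moved, the groups are called by their labels throughout, and each direction between the glioma groups is a direction between labels. The comparisons with the culture go by labels as well, and its Pdgfb level stood nearer to the EGFRvIII-labelled gliomas.

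Depth was 32513754 to 39062584 recovered reads per library. CPM is the read count scaled to the library size as the authors set it, and CPM per kb divides this by the summed exon length of the gene. Fold changes with tests are differences of mean deposited log2 CPM from limma, which hold a small prior count, so that a change in a gene of few reads comes out too small. A gene was called at an adjusted p under 0.05 over all 17422 genes, and coordinates are those of mm10. In these bulk libraries, fewer cells of a type and less RNA per cell cannot be told apart.

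Many of these genes are known to be controlled by SREBP, and Abca1, Abcg1 and Mylip by LXR, so their promoter sequences were read first. RefSeq promoters (GRCm38.p6) were on hand for 24 of the 29 members, without Abcg1, Fdft1, Sqle, Fdps and Stard4. The 250 bases upstream of each start site were searched on both strands. The sterol regulatory element TCACNCCAC, the site bound by SREBP, was found in 1 of the 24 members, Hmgcs1, in 1.25% of the 11649 tested genes with a promoter entry and in 1.05% of all 32851 promoter entries, of which a gene can have several. The share of genes is the one counted as for the members. Its first letters alone, TCACNCCA, which lie inside the longer motif, were found in 3 members (Hmgcs1, Msmo1 and Srebf2), in 4.09% of tested genes and in 3.67% of promoter entries. The box CCAAT, bound by NF-Y, stood in 21 of 24 members, in 40.1% of tested genes and in 33.8% of promoter entries. GGGCGG, the GC box bound by Sp1, stood in 22 of 24 members, in 61.6% of tested genes and in 32.7% of promoter entries. The E-box CACGTG stood in 6 members, in 9.55% of tested genes and in 6.02% of promoter entries. A DR4 motif, the direct repeat of the form that LXR binds, stood in 2 members, Srebf1 and Abca1, in 0.515% of tested genes and in 0.621% of promoter entries. A match is a string of letters, and no match says only that the string is absent from this window.

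Hmgcs1 is shown for the sterol regulatory element, Srebf2 for the shorter string alone, Insig1 for a control gene with neither, and Abca1 and Mylip because they are the 2 members called between the glioma groups. Each run is written 5′ to 3′ on the strand of the gene and stops before the first annotated exon. In Hmgcs1 (chr13:119690151-119690350, plus strand) the capitals mark TCACCCCAC and 2 copies of ATTGG, the reverse complement of CCAAT. In Srebf2 (chr15:82147069-82147180, plus strand) they mark TCACCCCA and 1 ATTGG. In Insig1 (chr5:28071212-28071362, plus strand) they mark the E-box. In Abca1 (chr4:53159896-53160095, minus strand) they mark the E-box and the direct repeat, which lies on the opposite strand. In Mylip (chr13:45389542-45389741, plus strand) they mark 3 copies of ATTGG.
Hmgcs1: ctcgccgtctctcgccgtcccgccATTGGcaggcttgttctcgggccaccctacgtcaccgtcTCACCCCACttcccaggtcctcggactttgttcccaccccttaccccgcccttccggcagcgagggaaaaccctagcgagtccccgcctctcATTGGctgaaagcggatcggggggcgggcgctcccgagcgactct
Srebf2: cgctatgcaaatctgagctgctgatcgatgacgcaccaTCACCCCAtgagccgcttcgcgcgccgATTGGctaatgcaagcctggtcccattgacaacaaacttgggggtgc
Insig1: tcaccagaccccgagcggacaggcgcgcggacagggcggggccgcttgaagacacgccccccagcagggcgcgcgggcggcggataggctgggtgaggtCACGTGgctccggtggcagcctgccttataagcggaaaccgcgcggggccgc
Abca1: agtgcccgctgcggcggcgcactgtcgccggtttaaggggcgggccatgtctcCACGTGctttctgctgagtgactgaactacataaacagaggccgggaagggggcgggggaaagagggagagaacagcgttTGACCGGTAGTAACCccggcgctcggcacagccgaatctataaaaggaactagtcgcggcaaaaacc
Mylip: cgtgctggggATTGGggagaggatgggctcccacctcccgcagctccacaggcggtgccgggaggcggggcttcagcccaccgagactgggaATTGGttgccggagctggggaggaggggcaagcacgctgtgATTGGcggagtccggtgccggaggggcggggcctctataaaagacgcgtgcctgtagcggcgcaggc
In Hmgcs1 the element begins 137 bases upstream of the start site, with the copies of ATTGG at 176 and 45 bases upstream. In Srebf2 the shorter string TCACCCCA is 162 bases upstream and ATTGG 135. The direct repeat of Abca1 begins 67 bases upstream of the start site and its E-box 147. The 3 copies of ATTGG in Mylip begin 190, 108 and 67 bases upstream.

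The synthesis enzymes were expressed in all 7 libraries, and none of the 29 members was at 0 anywhere. Per exon length in the mean of the 6 gliomas, Hmgcs1, which makes HMG-CoA at the entry to the mevalonate steps, stood first of the 20 enzymes at 62.4 CPM per kb. Cyp51, the lanosterol demethylase, followed at 22.5, Idi1, the isomerase of isopentenyl pyrophosphate, at 21.3, Sqle, the squalene epoxidase, at 19.2, and Acat2, which makes acetoacetyl-CoA, at 18.2 CPM per kb. Tm7sf2, a sterol reductase, was last at 2.35 CPM per kb, while Lbr, the nuclear envelope protein that carries out the same reduction, stood at 12.6. The order of Cyp51 and Idi1 was not tested. Per kb they stood at 21.03 and 21.02 CPM in the mean of the PDGF-B-labelled gliomas and at 24.0 and 21.6 in the EGFRvIII-labelled ones. In the culture Idi1 was the higher, at 74.9 against 69.2 CPM per kb. Before length is taken into account, they ranged over 77.0 to 132 CPM and 41.5 to 109 CPM in the gliomas. On the same length scale, Abca1 stood at 53.2 CPM per kb in the mean of the 6 gliomas and at 13.6 in the culture. Its glioma groups do not overlap, with means of 33.6 CPM per kb labelled PDGF-B and 72.9 labelled EGFRvIII. Srebf2 stood at 30.0 CPM per kb in the mean of the 6 gliomas and at 36.2 in the culture.

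**Figure D1:**
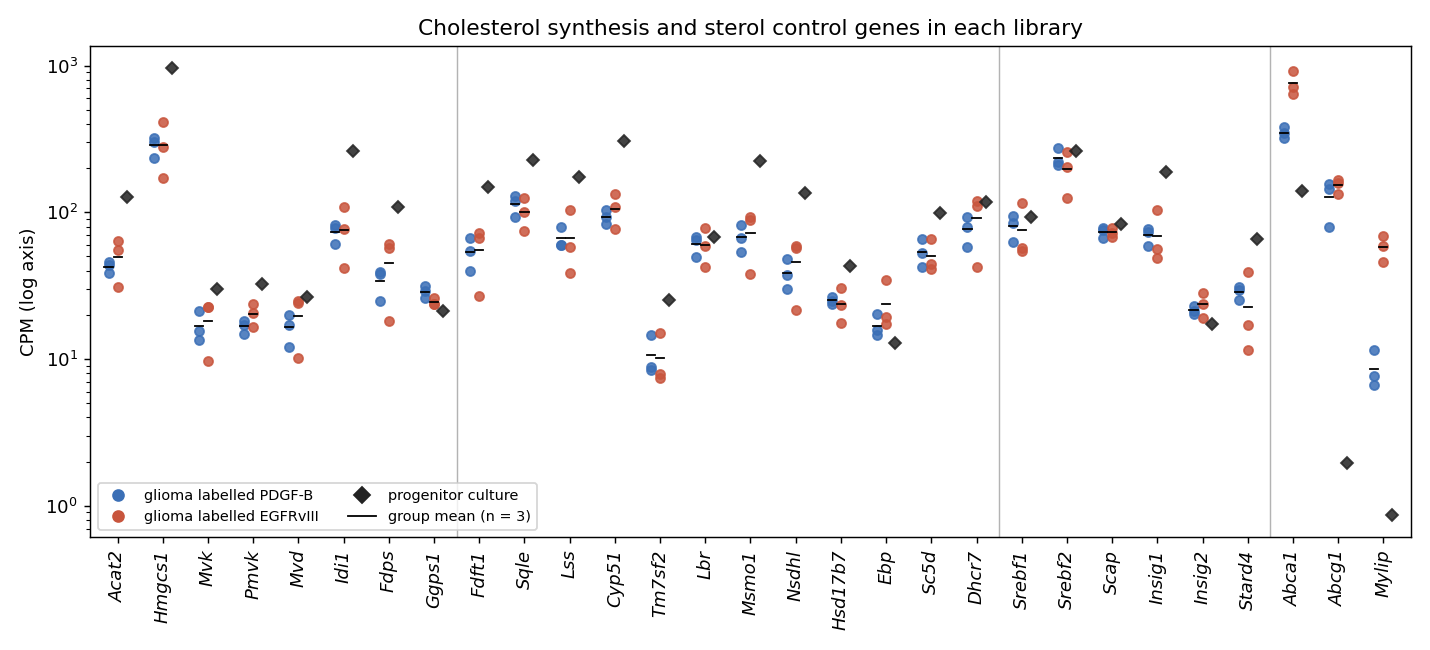
Level of each of the 29 genes in every library, in CPM on a log axis, with genes ordered by pathway step and vertical lines between the 4 classes. Blue points are PDGF-B-labelled gliomas, red points EGFRvIII-labelled gliomas, diamonds the progenitor culture, and short bars the means of 3 gliomas. The culture diamond lies above all glioma points for 16 of 20 enzymes and below all of them for Abca1, Abcg1 and Mylip.

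Between the 2 glioma groups, 2 of the 3 export and decay genes differed and no synthesis enzyme was called. Abca1, which loads cholesterol onto apolipoproteins, and Mylip, the ligase that tags lipoprotein receptors for decay, were both lower in the PDGF-B-labelled gliomas. Mean Mylip was 6.71 times and mean Abca1 2.17 times as high in the EGFRvIII-labelled gliomas. Thus 2 of the 29 members were called, both lower in the PDGF-B-labelled gliomas, where 3.35% of all genes were called in either direction with 0.717% as higher and 2.63% as lower.

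Mylip (ENSMUSG00000038175, chr13:45389742-45412022) stood at 6.64, 7.70 and 11.5 CPM in replicates 1 to 3 labelled PDGF-B and at 68.5, 58.7 and 46.0 CPM in the EGFRvIII-labelled ones. The groups do not overlap: the highest PDGF-B-labelled glioma, replicate 3, lies well under the lowest labelled EGFRvIII, also replicate 3. The group means were 8.61 ± 2.55 and 57.8 ± 11.3 CPM (SD, n = 3 each), and limma gave a log2 fold change of -2.76 (SE 0.27, adjusted p = 0.0163). Abca1 (ENSMUSG00000015243, chr4:53030787-53159895) stood at 378, 320.2 and 345 CPM in the PDGF-B-labelled gliomas and at 914, 713 and 639.9 CPM in the EGFRvIII-labelled ones. These groups do not overlap either, and in the EGFRvIII-labelled ones replicate 1 was the highest for both genes. The means were 348 ± 29.1 and 755 ± 142 CPM (SD, n = 3 each), and limma gave a log2 fold change of -1.11 (SE 0.21, adjusted p = 0.0394). Abcg1 (ENSMUSG00000024030, chr17:31057675-31117988), the transporter that passes cholesterol to formed lipoprotein particles, stood at 156, 145 and 78.9 CPM and at 165, 133 and 159 CPM. Its groups overlap, with replicate 3 labelled PDGF-B the lowest, and its log2 fold change was -0.32 (95% interval -0.98 to 0.34, limma adjusted p = 0.592).

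The calls of both genes depend on the set of libraries. When 1 glioma was left out, the calls over all genes fell from 583 to between 4 and 21, except without PDGF-B replicate 3 (1282). The Abca1 call was lost without any 1 of the 6 gliomas, with log2 fold changes of -1.22 to -0.96 and limma adjusted p of 0.0523 to 0.151, and with library totals (0.0646) or without the intensity trend (0.0643). The Mylip call was lost without any glioma except PDGF-B replicate 3 (-2.91 to -2.59, limma adjusted p of 0.0585 to 0.0843), and held without that library (log2 fold change -2.98, limma adjusted p = 0.0021). With the replicate number as a block, both calls were lost as well (limma adjusted p = 0.0857 for Abca1 and 0.0556 for Mylip).

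The levels of microglia and macrophage markers moved with Abca1 and Mylip. Of 15 such markers, 14 were called lower in the PDGF-B-labelled gliomas, where 2.63% of all genes were. The summed level of the 15 was 449, 638 and 2057 CPM there against 7746, 15933 and 6898 CPM in the EGFRvIII-labelled gliomas. Within the EGFRvIII-labelled gliomas, the sum was highest in replicate 2, whereas Abca1 and Mylip were highest in replicate 1. In the PDGF-B-labelled gliomas, Mylip and the sum were both highest in replicate 3, while Abca1 was highest in replicate 1, where the sum was lowest. For 5 of 10 oligodendrocyte precursor and 6 of 11 myelin markers, every PDGF-B-labelled glioma lay above every EGFRvIII-labelled one, beside 10.3% of all genes. All libraries were sorted for DsRed, which marks transduced cells. These marker levels are those of the sorted fraction as a whole, and which of its cells held the transcripts was not measured. The part of microglia and macrophages, or of other cell types, in the difference was not tested.

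None of the 20 synthesis enzymes was called between the glioma groups (limma, also with voom weights), and none had an unadjusted p under 0.05, against 16.7% of all genes. Their log2 fold changes ran from -0.43 for Ebp, the sterol isomerase, to 0.23 for Ggps1, which makes geranylgeranyl pyrophosphate for protein prenylation. The median over the 20 enzymes was 0.016, with 10 estimates above 0 and 10 below, beside a median of -0.00015 over all genes. The smallest limma adjusted p was 0.506, for Ebp. These values do not show that the groups were alike. The 95% intervals ran from -1.37 to 0.85 for Fdps, the farnesyl pyrophosphate synthase, to -0.18 to 0.63 for Ggps1, so changes of the size seen in Abca1 fall inside some of them. Ggps1 was the only enzyme whose groups did not overlap, at 31.4, 28.9 and 26.1 CPM labelled PDGF-B and 23.8, 26.1 and 23.7 CPM labelled EGFRvIII, replicate 3 labelled PDGF-B at 26.11 and replicate 2 labelled EGFRvIII at 26.10 nearly touching, where 22.9% of all genes had groups without overlap, 10.3% with the PDGF-B-labelled gliomas above.

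Among the mevalonate enzymes, Hmgcs1 stood at 234, 321 and 301 CPM in the PDGF-B-labelled gliomas and 171, 280.3 and 413 CPM in the EGFRvIII-labelled ones. Both means were close, 285 ± 45.8 and 288 ± 121 CPM (SD, n = 3 each), while the spread labelled EGFRvIII was wider. Idi1 gave 73.7 ± 11.1 and 75.7 ± 33.8 CPM and Acat2 42.5 ± 3.80 and 49.9 ± 17.0 CPM (SD, n = 3 each). Mvk and Pmvk, the kinases that add phosphates to mevalonate, ranged over 9.69 to 22.7 CPM and 14.9 to 23.9 CPM in the 6 gliomas, and Mvd, the decarboxylase that follows them, over 10.1 to 24.8 CPM. Fdps ranged over 18.1 to 61.2 CPM.

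Among the squalene and sterol enzymes, Cyp51 gave 92.9 ± 10.5 CPM in the PDGF-B-labelled gliomas and 106 ± 27.7 CPM in the EGFRvIII-labelled ones (SD, n = 3 each). Sqle, which carries out a slow step of the pathway, gave 113 ± 18.3 and 99.9 ± 25.7 CPM. Fdft1, the squalene synthase, ranged over 27.0 to 72.0 CPM in the 6 gliomas, and Lss, which closes the rings to lanosterol, over 38.7 to 104 CPM. The demethylation enzymes Msmo1, Nsdhl and Hsd17b7 ranged over 38.1 to 92.2 CPM, 21.7 to 59.1 CPM and 17.6 to 30.3 CPM. For the last steps, Ebp ranged over 14.7 to 34.4 CPM, Sc5d, the desaturase, over 41.3 to 66.2 CPM, and Dhcr7, the final reductase of this branch, over 42.7 to 120.0 CPM. The reductases Tm7sf2 and Lbr ranged over 7.44 to 14.98 CPM and 42.1 to 77.7 CPM. Every one of these 12 enzymes overlapped between the glioma groups. Exons of Fdft1 share 774 bases with Ctsb, those of Cyp51 166 with Akap9 and those of Lbr 440 with Dnah14, all on the other strand. Those of Tm7sf2 share 532 bases with Vps51 on the same strand. The largest share of any member was in Fdps, a mevalonate enzyme. It shares 1124 bases (26.7%) with Gm43738 on the same strand, a gene absent from the expression tables. Hmgcs1, Lss, Idi1, Srebf1, Scap and Ggps1 overlap other genes too. No source used here says whether counting used strand, so these values may hold reads of the neighbour.

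**Figure D2:**
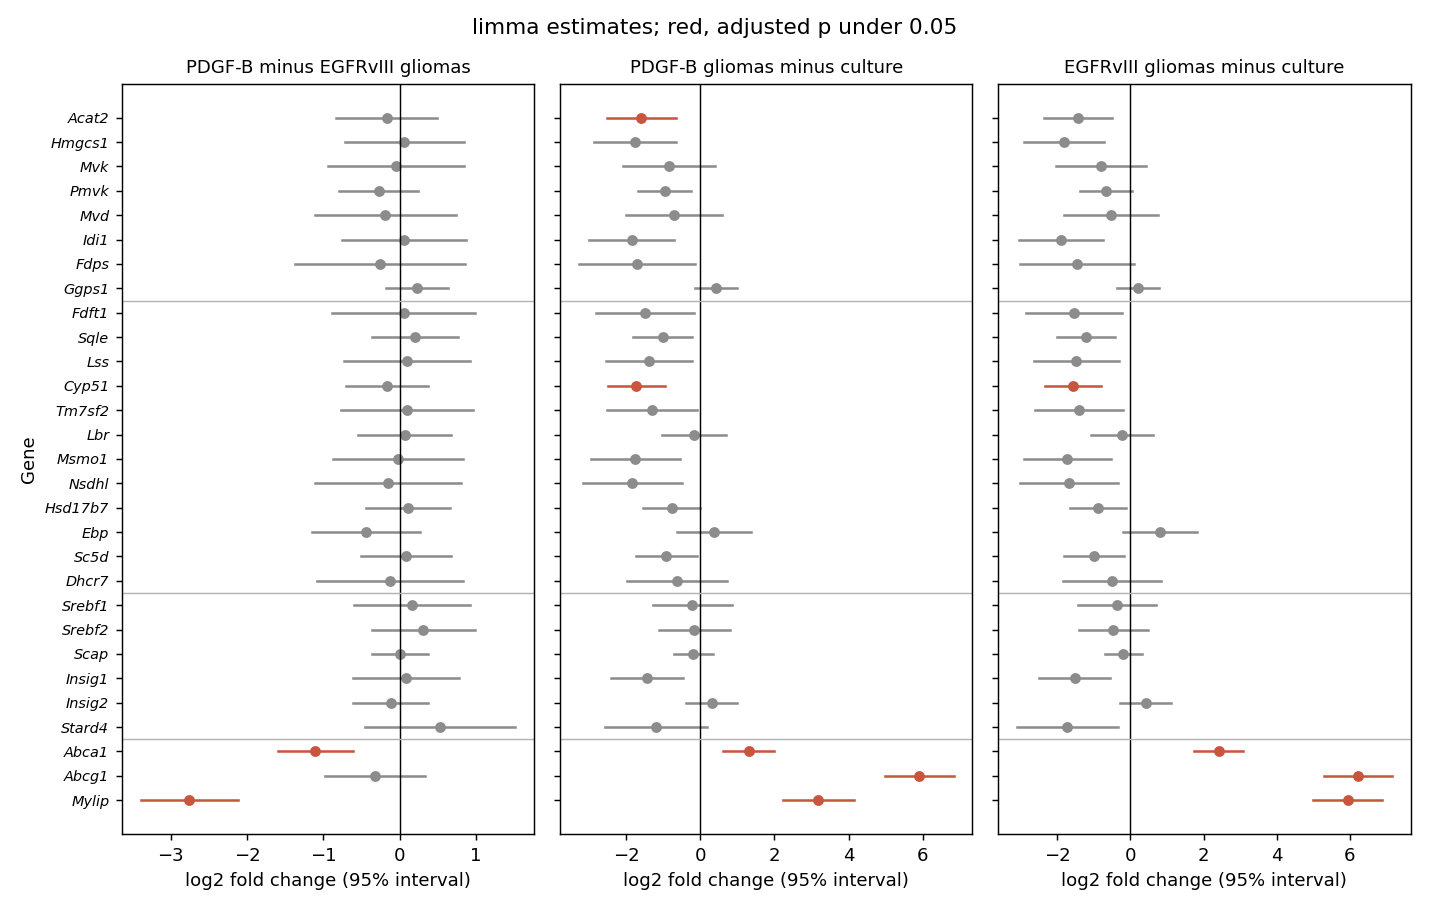
Difference in mean log2 CPM with its 95% interval from limma for each gene in the 3 comparisons, groups named as labelled; red marks an adjusted p under 0.05 over all genes. In the left panel only Abca1 and Mylip are red. In the other 2 panels, against the culture, Abca1, Abcg1 and Mylip lie to the right of 0 and Cyp51 to the left, and Acat2 is red in the middle panel only.

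The SREBP control genes gave no call between the glioma groups, and none had an unadjusted p under 0.05 (limma), against 16.7% of all genes. Srebf2, the SREBP form tied mainly to cholesterol genes, stood at 210.0, 274 and 219.8 CPM labelled PDGF-B and at 125, 205 and 258 CPM labelled EGFRvIII. Srebf1, tied more to fatty acid genes, stood at 62.9, 94.4 and 84.7 CPM and 54.9, 56.8 and 116 CPM. Replicate 1 was the lowest of the EGFRvIII-labelled gliomas for both, and replicate 3 the highest. The CPM ratio of Srebf2 to Srebf1 lay between 2.22 and 3.60 in the gliomas and was 2.82 in the culture, inside that range. Scap, the escort protein, ranged over 66.9 to 78.5 CPM. Stard4, a cytosolic sterol carrier, gave 25.4, 30.9 and 29.7 CPM and 11.5, 17.2 and 39.0 CPM, with a log2 fold change of 0.53 (95% interval -0.46 to 1.52, limma adjusted p = 0.556).

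The 2 Insig genes, which encode the sterol-sensing retention proteins, were ordered differently across the gliomas. Insig1, itself a target of SREBP, stood at 59.1, 76.7 and 73.1 CPM labelled PDGF-B and 55.8, 48.9 and 103 CPM labelled EGFRvIII, and Insig2 at 21.3, 20.2 and 23.1 CPM and 28.1, 23.7 and 19.0 CPM. The CPM ratio of Insig1 to Insig2 was 2.77, 3.79 and 3.17 in the PDGF-B-labelled gliomas, and 1.98, 2.07 and 5.43 in the EGFRvIII-labelled ones. Replicate 3 labelled EGFRvIII was thus the highest glioma and replicate 1 labelled EGFRvIII the lowest, and the groups overlap. In the culture the ratio was 10.8, above all 6 gliomas. The ratio is between reads, not per length, and is given as a description.

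The enzymes also differed between single gliomas of a label. This pattern was chosen after the values were seen and is described without a test. Replicate 1 labelled EGFRvIII was the lowest of the 6 gliomas for 13 of the 20 enzymes, where it was lowest for 13.4% of all genes, and the lowest of its own 3 for 15 of 20, beside 32.5%. Replicate 3 labelled EGFRvIII was the highest for 12 of the 20, where it was highest for 11.4% of all genes. Within the PDGF-B-labelled gliomas, replicate 2 was the highest for 17 of 20 enzymes, beside 35.2% of all genes, and replicate 1 the lowest for 13 of 20, beside 28.3%.

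The median SD of log2 CPM over the 20 enzymes was 0.60 in the EGFRvIII-labelled gliomas and 0.24 in the PDGF-B-labelled ones. Over all genes with a mean of at least 10 CPM it was 0.32 and 0.20. Fdps had the widest spread labelled EGFRvIII, at 18.1, 56.9 and 61.2 CPM, an SD of 0.98 on the log2 scale, followed by Dhcr7 at 42.7, 109 and 120.0 CPM (0.82) and Nsdhl at 21.7, 59.1 and 57.2 CPM (0.82). In all 3 genes replicate 1 lies apart from the other 2. Without that library the median log2 fold change over the 29 members between the glioma groups was -0.27, against 0.0078 with it. Over all genes it was -0.010 and -0.00015. At an unadjusted p under 0.05 (limma) stood 6 members in place of 2, though none was called. With all 6 gliomas, 16.7% of all genes passed that limit, and the share without this library was not counted.

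Summed over the 20 enzymes, the level was 1017, 1366 and 1187 CPM in the PDGF-B-labelled gliomas and 831, 1286 and 1625 CPM in the EGFRvIII-labelled ones. Summed over Abca1, Abcg1 and Mylip, it was 541, 473 and 435 CPM and 1147, 905 and 845 CPM. The EGFRvIII-labelled glioma with the lowest synthesis sum, replicate 1, held the highest export sum, and replicate 3 the reverse. Mitosis genes did not follow the synthesis sum among the PDGF-B-labelled gliomas: their summed level was 1299, 171 and 1373 CPM, lowest in replicate 2, where the enzymes were highest. In the EGFRvIII-labelled gliomas it was 1077, 908 and 1302 CPM, highest in replicate 3 as for the enzymes and lowest in replicate 2, whereas the enzymes were lowest in replicate 1.

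**Figure D3:**
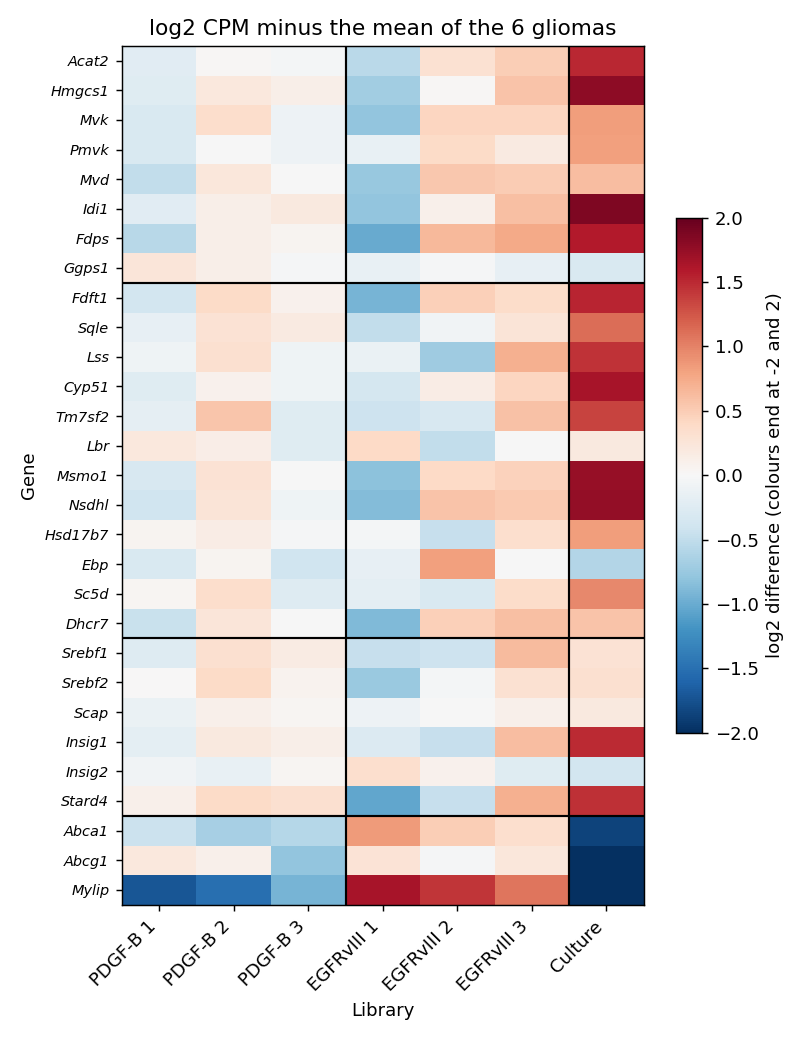
Log2 CPM of each gene in each library minus its mean over the 6 gliomas, red above and blue below, with colours ending at -2 and 2. The first column labelled EGFRvIII is blue for most enzymes and the third is red, and the bottom 3 rows, Abca1, Abcg1 and Mylip, are darkest in the culture.

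**Figure D4:**
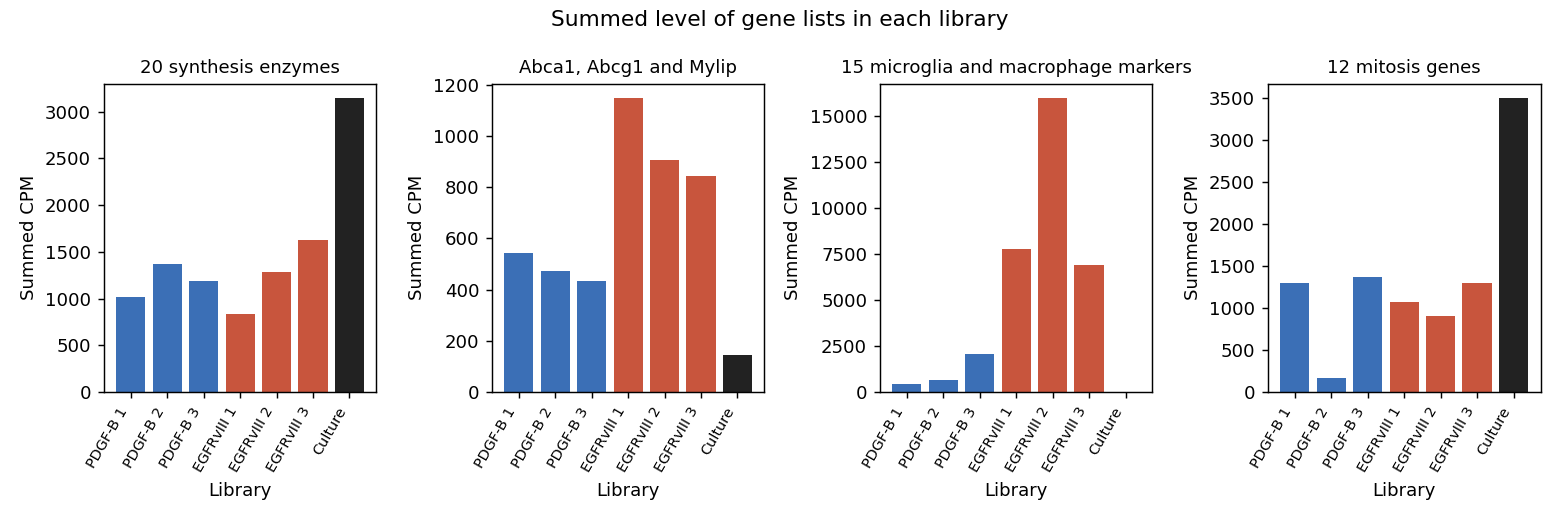
Summed CPM of 4 gene lists in each library: the 20 synthesis enzymes, the 3 genes Abca1, Abcg1 and Mylip, 15 microglia and macrophage markers, and 12 mitosis genes. Bars are single libraries, so no error is drawn. The culture is highest for the enzymes (3143 CPM) and lowest for the export genes (143 CPM).

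Against the progenitor culture, the gliomas held more of the export genes and stood lower for most synthesis enzymes, few of which passed the test. In the PDGF-B-labelled gliomas, Abcg1, Mylip and Abca1 were higher and Cyp51 and Acat2 lower than in the culture. In the EGFRvIII-labelled ones, Abcg1, Mylip and Abca1 were higher and Cyp51 lower. That makes 5 of 29 members called for the PDGF-B-labelled gliomas, where 9.45% of all genes were called, and 4 of 29 for the EGFRvIII-labelled ones, where 9.55% were. As higher, 7.73% and 8.20% of all genes were called, and as lower 1.73% and 1.34%. Both comparisons use the same single culture library, so they are not independent of each other, and the culture is assumed to vary like the gliomas. Their spread is shared by all 3 groups, so leaving out a glioma of the other label changes p but not the fold change.

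Abcg1 had the largest log2 fold change of the 29 members in both comparisons. It stood at 1.97 CPM in the culture, from 68 reads, against 78.9 to 165 CPM in the 6 gliomas. Mean Abcg1 was 64.4 times the culture value in the PDGF-B-labelled gliomas and 77.4 times in the EGFRvIII-labelled ones. The log2 fold changes were 5.90 ± 0.39 and 6.23 ± 0.39 (SE, limma adjusted p = 0.000962 and 0.000336). Both calls held in each of the 13 alternatives run.

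Mylip stood at 0.868 CPM in the culture, from 30 reads, and every glioma was above it. The log2 fold changes were 3.19 ± 0.40 for the PDGF-B-labelled gliomas and 5.95 ± 0.40 for the EGFRvIII-labelled ones (SE, limma adjusted p = 0.00503 and 0.000431). Abca1 stood at 140.5 CPM in the culture, also below every glioma, with log2 fold changes of 1.30 ± 0.29 and 2.41 ± 0.29 (SE, limma adjusted p = 0.0341 and 0.00278). The Abca1 call for the PDGF-B-labelled gliomas was lost without PDGF-B replicate 1 (adjusted p = 0.121), PDGF-B replicate 2 (0.0714) or EGFRvIII replicate 3 (0.052), and without the intensity trend (0.0565). The Mylip call for that group was lost with voom weights (adjusted p = 0.0615).

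The 15 microglia and macrophage markers, like Abca1, Abcg1 and Mylip, lay below all 6 gliomas in the culture, as 27.8% of all genes did. Their summed level was 7.76 CPM in the culture, with C1qb, Trem2 and Tyrobp at 0 of the 15 markers, against 449 to 15933 CPM in the gliomas. Of the 15, 14 were called higher in the PDGF-B-labelled gliomas than in the culture and 15 in the EGFRvIII-labelled ones, beside 7.73% and 8.20% of all genes. Among the gliomas, Abcg1 did not follow this sum. Within each label it was lowest where the sum was highest, in PDGF-B replicate 3 (78.9 CPM) and EGFRvIII replicate 2 (133 CPM). Oligodendrocyte precursor markers summed to 5377 CPM in the culture and to 9184 to 21419 CPM in the gliomas, and myelin markers to 287 and 871 to 1719 CPM. The culture lay above all 6 gliomas for 6 of 10 astrocyte, 4 of 8 neuron and 2 of 9 endothelial and mural markers. It lay below all of them for 3, 3 and 6. Over all genes these shares were 24.0% and 27.8%. The part of these cells in the differences was not tested.

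Cyp51 stood at 305 CPM in the culture, against 82.6, 104 and 92.4 CPM in the PDGF-B-labelled gliomas and 77.0, 109 and 132 CPM in the EGFRvIII-labelled ones. All 6 gliomas lie below the culture. Its log2 fold changes were -1.72 ± 0.33 and -1.56 ± 0.33 (SE, limma adjusted p = 0.0208 and 0.0266). Both calls ended without PDGF-B replicate 1 (adjusted p = 0.0665 and 0.0524), and the second also without the intensity trend (0.056) and with voom weights (0.0526). Acat2 stood at 128 CPM in the culture, against 38.3, 45.7 and 43.6 CPM and 30.9, 55.3 and 63.6 CPM. Its log2 fold change of -1.59 ± 0.40 for the PDGF-B-labelled gliomas (SE, limma adjusted p = 0.0497) was at the threshold and was lost in 10 of 13 alternatives, with adjusted p up to 0.129. For the EGFRvIII-labelled ones it was -1.42 ± 0.40 (SE, limma adjusted p = 0.0716), which did not pass.

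The other enzymes mostly stood on the same side without passing the test. The culture lay above all 6 gliomas for 16 of the 20 enzymes, beside 24.0% of all genes, and for 19 of the 29 members. Relative to the mean of the 6 gliomas, the culture held 3.51 times as much Idi1, 3.34 times as much Hmgcs1, 3.19 times as much Nsdhl and 3.19 times as much Msmo1. Hmgcs1 reached 958 CPM in the culture, with log2 fold changes of -1.76 (95% interval -2.86 to -0.67) and -1.82 (-2.92 to -0.73) and limma adjusted p of 0.0595 and 0.0541. Idi1 reached 262 CPM, with limma adjusted p of 0.0589 and 0.0545. Fdps, Fdft1, Lss, Tm7sf2 and Sqle stood 2.75, 2.72, 2.59, 2.45 and 2.12 times as high in the culture as in the glioma mean. Sc5d, Hsd17b7, Pmvk, Mvk and Mvd were nearer, at 1.90, 1.76, 1.74, 1.70 and 1.46 times.

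The 4 enzymes outside that pattern were Ebp, Ggps1, Dhcr7 and Lbr. Ebp at 12.9 CPM and Ggps1 at 21.4 CPM lay below all 6 gliomas in the culture, as 27.8% of all genes did, and Dhcr7 and Lbr lay within the glioma range, at 117 CPM and 67.7 CPM. Dhcr7 and Ebp act late in the same branch as Sc5d, which stood at 99.1 CPM in the culture, above the glioma range of 41.3 to 66.2 CPM.

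Over the 20 enzymes the median log2 fold change was -1.15 for the PDGF-B-labelled gliomas and -1.30 for the EGFRvIII-labelled ones, with 18 of 20 estimates below 0 in each. Over all genes it was 0.037 and 0.013. At an unadjusted p under 0.05 stood 14 and 12 of the 20 enzymes, beside 27.2% and 23.9% of all genes. The number of members called rests on the library set. Without EGFRvIII replicate 1 it was 11 for the PDGF-B-labelled gliomas, with Hmgcs1, Idi1, Fdps, Fdft1, Msmo1 and Nsdhl added as lower. Of all 17422 genes, 1278 were then called, 173 of them as lower, against 1647 and 301 with all gliomas. The log2 fold changes of that comparison stayed the same, because EGFRvIII replicate 1 enters it only through the shared spread. The number was 2 without PDGF-B replicate 1 and 3 without PDGF-B replicate 2, beside 854 and 1054 of all genes. For the EGFRvIII-labelled gliomas it was 9 without EGFRvIII replicate 3, with Hmgcs1, Idi1, Lss, Insig1 and Stard4 added as lower. Of all genes, 1058 were then called, 115 of them as lower, against 1663 and 234 with all gliomas. Mitosis genes stood higher in the culture as well, at a summed 3495 CPM against 171 to 1373 CPM in the gliomas. The culture lay above all 6 gliomas for 12 of 12, beside 24.0% of all genes, and none was called. At an unadjusted p under 0.05 (limma) stood 5 and 0 of 12, beside 27.2% and 23.9% of all genes. The part of proliferation in the enzyme levels was not tested.

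Among the control genes, Insig1 and Stard4 stood with the enzymes. Insig1 reached 188 CPM in the culture, 2.71 times the glioma mean, with log2 fold changes of -1.44 and -1.52 (limma adjusted p = 0.0754 and 0.0669). Stard4 reached 65.4 CPM, with -1.19 and -1.72 (limma adjusted p = 0.236 and 0.125). Neither gene was called. The transcription factors themselves stood near the gliomas, Srebf2 at 259.9 CPM and Srebf1 at 92.3 CPM in the culture, both within the glioma range. Their 95% intervals were -1.11 to 0.79 and -1.42 to 0.48 for Srebf2 and -1.28 to 0.85 and -1.44 to 0.70 for Srebf1. Scap stood at 83.3 CPM, just above all gliomas, and Insig2 at 17.4 CPM, below all of them.

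The neighbouring pathways were read from lists of other genes, whose single calls were not recomputed under the alternatives. None of 15 fatty acid genes under SREBP control was called in any of the 3 comparisons, where 3.35%, 9.45% and 9.55% of all genes were. At an unadjusted p under 0.05 (limma) stood 0, 2 and 5 of them, beside 16.7%, 27.2% and 23.9% of all genes. The culture lay above all 6 gliomas for 12 of the 15, beside 24.0% of all genes. Scd1, the stearoyl-CoA desaturase, stood at 468 CPM in the culture and over 134 to 273 CPM in the gliomas. None of 12 genes of the isoprenoid branches, which lead to prenylated proteins, dolichol and ubiquinone, was called in any of the 3. At an unadjusted p under 0.05 (limma) stood 0, 1 and 0 of them, beside the same shares of all genes. Over the 12 genes the median log2 fold changes were 0.054, -0.10 and -0.16, beside the -1.15 and -1.30 of the enzymes against the culture.

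Of 16 genes for LXR, SREBP processing and sterol-dependent degradation, 1 was called, Rxra, the partner receptor of LXR. It was higher in the EGFRvIII-labelled gliomas than in the culture, as 8.20% of all genes were, at 60.2, 70.4 and 57.2 CPM against 19.9 CPM (log2 fold change 1.64, limma adjusted p = 0.0136). Of 14 lipoprotein and receptor genes, 4 were lower in the PDGF-B-labelled gliomas than in the EGFRvIII-labelled ones, where 2.63% of all genes were, among them Apoe, Apoc1 and Lpl. Apoe, the main apolipoprotein of the brain, stood at 367, 663 and 2438 CPM and 10002, 11259.6 and 6981 CPM (log2 fold change -3.46, limma adjusted p = 0.0387), and at 129 CPM in the culture. Replicate 3 labelled PDGF-B was the highest of its group for Apoe and for the microglia and macrophage sum alike. Against the culture, 4 of the 14 were higher in the PDGF-B-labelled gliomas and 5 in the EGFRvIII-labelled ones, beside 7.73% and 8.20% of all genes, and none was lower. Lrp1, an endocytic receptor for lipoproteins, was among both, at 349 CPM in the culture and 1372 to 2491 CPM in the gliomas.

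Of 17 genes for sterol storage, transport and oxysterol enzymes, 2 were called between the glioma groups, both lower in the PDGF-B-labelled ones, as 2.63% of all genes were. Lipa, the lysosomal lipase that frees cholesterol from its esters, stood at 31.9, 37.5 and 51.8 CPM and 135, 169.6 and 112 CPM (log2 fold change -1.79, limma adjusted p = 0.0245). Soat1, which makes the esters, stood at 37.6, 41.1 and 57.0 CPM and 104, 134 and 93.1 CPM (log2 fold change -1.29, limma adjusted p = 0.0326). Both genes ordered the 6 gliomas as the microglia and macrophage sum did (449, 638 and 2057 CPM, and 7746, 15933 and 6898 CPM), and the part of these cells was not tested. Against the culture, 2 of 17 were higher in the PDGF-B-labelled gliomas, Gramd1b and Npc1, and 6 in the EGFRvIII-labelled ones, beside 7.73% and 8.20% of all genes, again with none lower. Gramd1b, a sterol transfer protein of the endoplasmic reticulum, stood at 21.4 CPM in the culture and over 72.4 to 186 CPM in the gliomas, and the glioma groups overlap.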

How the data were processed

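Gene expression was measured by RNA sequencing in 7 mouse libraries: 3 gliomas labelled PDGF-B, 3 labelled EGFRvIII and 1 progenitor culture, grouped by their titles. The deposited values are log2 CPM, per the file headers; in the table of EGFRvIII replicate 3 the header lacks a unit, but its values share the floor of the others. The authors used STAR and edgeR on the mm10 build, versions not named, per the submitters' processing notes. No source used here names the quantifier, scaling, filter or strand setting.

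The values fit estimated reads plus a prior count of 2, with low values at multiples of 0.01 reads in every library. Removing that prior gave the CPM printed here and 32513754 to 39062584 reads per library, whose number limits the precision of low genes. Symbols were found for 17247 of 17422 gene IDs. Coordinates and exon lengths are from GENCODE M21 (GRCm38, which mm10 denotes) and promoters from RefSeq (GRCm38.p6).

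The deposited log2 values were tested as they are with limma 3.58.1 in R 4.3.3, with an intensity trend and robust moderation, and Benjamini-Hochberg adjustment over all genes. The 6 gliomas were fitted alone. For the culture, 1 model held all 7 libraries in 3 groups. The procedure was tested on simulated data. Alternatives covered pseudocounts of 0.5 and 1 CPM, a minimum of 1 CPM in 3 libraries, 2 other scalings, no trend, voom weights, an adjusted p of 0.01, a replicate block and leaving out each glioma.

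All 29 members are named; of other lists, at most the 3 genes of smallest p in each comparison, and of those shown with levels the text gives a few. Members and lists were chosen with earlier results of these data known. No batch is given in the labels.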

Additional observations from a re-analysis of the deposited data

How the results depend on the processing

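Over the 29 members, 3 comparisons and all alternatives, 1160 values were recomputed. No called value changed sign; 44 uncalled values did, 42 of them when a library was left out, and the largest of these was 0.26 in the analysis as reported.

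Between the glioma groups, the calls were 2 members and 583 genes. At an adjusted p under 0.01 these were 0 and 7, without the intensity trend 1 and 224, and with library totals 1 member. Leaving out 1 glioma gave 0 to 1 members and 4 to 1282 genes. For the PDGF-B-labelled gliomas against the culture, 5 members and 1647 genes became 2 and 507 at an adjusted p under 0.01, 3 and 553 with voom weights, and 3 members without the trend, with 2 to 11 members and 854 to 2303 genes when 1 glioma was left out. For the EGFRvIII-labelled ones, 4 members and 1663 genes became 704 genes at 0.01 and 721 with voom weights, with 3 to 9 members and 1058 to 2030 genes when 1 glioma was left out. Against the culture, leaving out a glioma of the other label changes these counts only through the shared spread, as the fold changes stay the same. Causes of the other changes were not tested.

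With the replicate number as a block, 0 members and 18 genes were called between the glioma groups. Deviations from the group mean correlated at 0.175, -0.0364 and -0.0795 between same-numbered gliomas. Differently numbered gliomas gave -0.25 to 0.207. With 3 gliomas in each group, these correlations cannot decide whether the numbers pair them, and the labels name no batch. No paired analysis was possible for the culture because it has 1 library.

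Library totals moved the median of all genes from 0.037 to 0.15 for the PDGF-B-labelled gliomas against the culture. Depth limits the lowest levels: in the culture Mylip rests on 30 reads and Abcg1 on 68, and folds against it carry that counting error as well as the lack of a second culture.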
